A study of Rattus norvegicus with 72 samples.

Results

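Glycolysis turns glucose into pyruvate, and 10 of its enzyme genes were followed across the dissected nephron segments and the whole kidney of rats after removal of the opposite kidney. The set was chosen by symbol and held Hk1, Hk2, Pfkp, Aldoa, Pgk1, Pgam1, Eno1, Pkm, Ldha and Ldhb, which are 10 of the 32545 genes in the deposited tables. Pkm had 2 gene IDs and the ID with the higher total count was used, while each of the other members had 1. Hk1 (ENSRNOG00000046891) lies on chromosome 20 of the GRCr8 assembly in RefSeq, Hk2 (ENSRNOG00000006116) and Ldhb (ENSRNOG00000013000) on chromosome 4, Pfkp (ENSRNOG00000017163) on 17 and Pgk1 (ENSRNOG00000058249) on X. Aldoa (ENSRNOG00000052802), Pgam1 (ENSRNOG00000050585) and Ldha (ENSRNOG00000013009) lie on chromosome 1, Eno1 (ENSRNOG00000017895) on 5 and Pkm (ENSRNOG00000011329) on 8. The study took adult male Sprague-Dawley rats through right nephrectomy, with ligation and excision of the right kidney, or through a sham operation in which the vessels of that kidney were freed and left in place. At 24, 48 or 72 h after either operation, RNA was sequenced from microdissected glomeruli, from microdissected S1 segments of the proximal tubule, and from the whole left kidney. There were 4 libraries for each tissue, operation and time, 72 in all. Whether the libraries of a group stem from separate animals is not stated in the labels, so p-values measure the spread between libraries, which may be partly technical.

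The pathway begins with hexokinase, which phosphorylates glucose, and its committed step is phosphofructokinase. Aldolase then splits the sugar, phosphoglycerate kinase makes ATP, phosphoglycerate mutase and enolase rearrange the product, and pyruvate kinase makes ATP again and leaves pyruvate. Lactate dehydrogenase interconverts pyruvate and lactate. The hexokinase, phosphofructokinase and pyruvate kinase steps are irreversible in the cell, while the steps between aldolase and enolase run in either direction and also serve glucose synthesis. In the kidney, the proximal tubule is known for glucose synthesis and for oxidation of lactate and fatty acids, and glycolysis is known as the main route of glucose use in the distal segments.

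Promoters of 9 of the 10 members were listed by RefSeq (GRCr8), in 13 windows that run from 250 bases before to 50 bases after a transcription start. They are shown because several members are textbook targets of the hypoxia-inducible factors, whose binding element has the core ACGTG. Searched on both strands, ACGTG was found in 5 of the 13 windows, 1 each for Hk1, Aldoa, Pgam1, Eno1 and Ldha, against 19.3% of the 33469 rat promoter windows of the same length. The E box CACGTG, whose letters contain ACGTG, was found in 1 window, that of Ldha, against 6.42% of all windows. The GC box GGGCGG was found in 8 of the 13 windows, against 33.1% of all, and the TATA box TATAAA in 0, against 14.2%. A match is a description of the letters and not evidence of binding. The bases before the start follow for the members with ACGTG there, 5′ to 3′ on the strand of the gene, with ACGTG or its complement CACGT in capitals.
Hk1 promoter, chr20:30842073-30842322, minus strand: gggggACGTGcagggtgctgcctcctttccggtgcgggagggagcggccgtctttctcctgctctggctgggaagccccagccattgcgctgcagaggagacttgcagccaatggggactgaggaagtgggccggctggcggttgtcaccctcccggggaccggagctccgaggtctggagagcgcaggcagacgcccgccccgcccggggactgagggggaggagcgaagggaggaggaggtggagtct
Aldoa promoter, chr1:190836778-190837027, minus strand: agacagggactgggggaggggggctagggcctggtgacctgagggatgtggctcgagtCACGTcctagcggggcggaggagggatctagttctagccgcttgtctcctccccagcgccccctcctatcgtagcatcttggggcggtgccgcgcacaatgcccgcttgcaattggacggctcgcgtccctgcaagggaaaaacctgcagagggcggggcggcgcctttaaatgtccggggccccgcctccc
Pgam1 promoter, chr1:250672902-250673151, plus strand: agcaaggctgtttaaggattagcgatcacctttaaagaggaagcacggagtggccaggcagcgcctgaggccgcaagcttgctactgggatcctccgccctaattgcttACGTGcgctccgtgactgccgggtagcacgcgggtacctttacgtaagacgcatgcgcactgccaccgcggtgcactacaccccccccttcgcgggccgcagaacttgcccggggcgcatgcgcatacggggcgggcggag
Ldha promoter, chr1:106507842-106508091, plus strand: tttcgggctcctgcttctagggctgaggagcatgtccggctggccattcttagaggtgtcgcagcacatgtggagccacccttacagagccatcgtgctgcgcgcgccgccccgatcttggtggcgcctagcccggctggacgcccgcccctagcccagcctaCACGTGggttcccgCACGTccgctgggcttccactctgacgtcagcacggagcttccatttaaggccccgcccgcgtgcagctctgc

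In the Ldha window the capitals start 87 and 73 bases before the start, and the first of them is the E box. The match of Hk1 lies 245, that of Aldoa 192 and that of Pgam1 141 bases before the start, and that of Eno1 lies after its start and is not shown. Hk1, Aldoa and Eno1 each have further listed starts whose windows hold no ACGTG. Whether any of these elements was in use in these kidneys was not measured.

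The segments and the whole kidney were prepared differently: segment RNA was amplified with NuGEN Ovation V2 and read from 1 end, whole kidney RNA went through stranded TruSeq kits and was read from both ends. Tissue and library method therefore cannot be told apart between segments and whole kidney, and those levels are given side by side without a test. Counts assigned to genes ran from 2643258 to 61976179 per glomerular library (median 10986708), from 6402916 to 87368807 per S1 library (23376188) and from 10102869 to 55517383 per whole kidney library (38409398). Of the reads inside or outside genes, a median of 26.95% was assigned to a gene in glomeruli (lowest 2.92%). The median was 62.9% in S1 (lowest 8.05%) and 76.0% in whole kidney (lowest 60.2%). The 10 genes together held 0.0479 ± 0.0074% of gene counts in glomeruli after nephrectomy and 0.0452 ± 0.0048% after sham (SD, n = 12 and 11). The same share was 0.0787 ± 0.0329% after nephrectomy and 0.0742 ± 0.0199% after sham in S1 tubules (n = 12 and 11), and 0.136 ± 0.0342% after nephrectomy and 0.126 ± 0.0429% after sham in whole kidney (n = 12 each). The sham pair numbered 2 at 24 h goes against its labels. Nphs1, the podocyte gene for nephrin, was 1.46 RPKM in the library labelled glomeruli, against 209 to 479 RPKM in the other 11 sham glomerular libraries, and 262 RPKM in the library labelled S1, against 0.385 to 0.783 RPKM in the other 11. The same pair held the highest glomerular and the lowest S1 gene count given above, and the medians above include it. Among the other libraries the highest glomerular count was 37408599 and the lowest S1 count 7883861. That pair is left out of all values below unless stated. In the remaining sham libraries, 6 of 6 podocyte, 5 of 5 endothelial and 6 of 6 mesangial markers were higher in glomeruli than in S1, and 7 of 7 early proximal markers were lower. Markers of other cell types differed too: 5 of 7 immune and 4 of 5 red cell markers were higher in glomeruli, 6 of 6 collecting duct markers were lower, and of 6 markers of the loop of Henle and distal convoluted tubule 3 were higher and 2 lower. These counts come from the test between the segments given below, where about every other gene was called. With library totals alone 7 immune markers were higher, 2 collecting duct markers lower, and 4 loop and distal markers higher and 2 lower. The counts of the other lists stayed. Slc12a1, the sodium, potassium and chloride cotransporter of the loop, ranged from 0.519 to 658 CPM (gene counts scaled to the effective library size) in glomerular libraries after nephrectomy and from 1.62 to 584 after sham. Their part in the members' values was not tested. In whole kidney at 24 h, the libraries numbered 3 and 4 of both operations stand apart: Slc5a2, the glucose cotransporter of the early proximal tubule, was at 0.379 to 1.86 CPM there, against 18.4 to 282.5 in the other 20. Umod of the loop of Henle overlapped between those libraries, at 1635 to 1924 against 1361 to 2195 CPM. Nphs1 overlapped only through sham replicate 4, at 21.9 CPM against 13.5 to 52.8. It was 0.145 and 2.54 in nephrectomy replicates 3 and 4 and 3.87 in sham replicate 3, below all of the other 20. In S1 at 72 h, Slc5a2 was 4.68 CPM in nephrectomy replicate 2 and 10.5 in sham replicate 4, against 59.1 to 141 in the other 21 S1 libraries.

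In sham whole kidney the set covered a wide range of levels, with aldolase A at the top and hexokinase 2 at the bottom. Levels are given per length of transcript, as the RPKM or FPKM that the authors deposited, over 12 sham whole kidney libraries and 11 sham libraries of each segment. Hk1, the widely expressed hexokinase, was 16.7 ± 4.10 RPKM in glomeruli, 0.387 ± 0.172 RPKM in S1 and 16.3 ± 4.55 FPKM in whole kidney (SD). Hk2, the insulin-responsive hexokinase of muscle, was 2.96 ± 0.734, 0.433 ± 0.212 and 1.68 ± 1.36 in that order of tissues. Pfkp, the platelet-type phosphofructokinase, was 5.37 ± 0.482, 0.325 ± 0.192 and 17.6 ± 3.97. In S1 these 3 genes of the irreversible first steps were all below 1 RPKM in each of the 11 libraries, and each was higher in all 11 glomerular libraries than in all 11 S1 libraries. The S1 values rest on few reads: the count was 5 to 108 for Hk1 (median 21), 22 to 250 for Hk2 (49) and 0 to 113 for Pfkp (17).

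From the reversible middle of the pathway, Aldoa, Pgk1 and Pgam1 were abundant in all 3 tissues. Aldoa, the muscle-type aldolase, was 104.5 ± 21.1 RPKM in glomeruli, 109.4 ± 41.5 RPKM in S1 and 220.0 ± 78.7 FPKM in whole kidney. Pgk1, phosphoglycerate kinase, was 59.7 ± 14.2, 103.4 ± 37.2 and 153.8 ± 51.2 in that order. Pgam1, the brain-type mutase, was 49.5 ± 10.3, 80.2 ± 24.5 and 72.1 ± 33.3. These 3 genes kept at least 27.6 RPKM or FPKM in every sham library of the 3 tissues. Eno1, the widely expressed enolase, was at 8.01 ± 1.49 RPKM in glomeruli and 32.8 ± 16.2 RPKM in S1, beside 128.3 ± 63.2 FPKM in whole kidney.

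At the end of the pathway S1 carried mainly Ldhb, glomeruli carried both lactate dehydrogenase subunits at similar mean levels, and Pkm was low in both segments. Pkm, which encodes the M-type pyruvate kinases, was 2.53 ± 0.963 RPKM in glomeruli, 0.129 ± 0.0873 RPKM in S1 and 38.3 ± 7.55 FPKM in whole kidney. In S1 it rested on 1 to 30 counts per library, with a median of 5. Ldha, the M subunit of lactate dehydrogenase, was 22.8 ± 6.50 RPKM in glomeruli, 7.51 ± 2.45 RPKM in S1 and 36.8 ± 14.8 FPKM in whole kidney. In these units Ldhb, the H subunit, ran the other way between the segments. It was 19.95 ± 7.73 RPKM in glomeruli and 195.9 ± 65.5 RPKM in S1, beside 159.3 ± 50.2 FPKM in whole kidney. For Ldha the direction between the segments depended on the scaling, as given below. Ldhb was the highest of the 10 genes in 10 of the 11 S1 libraries, where it stood above Aldoa.

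**Figure D1:**
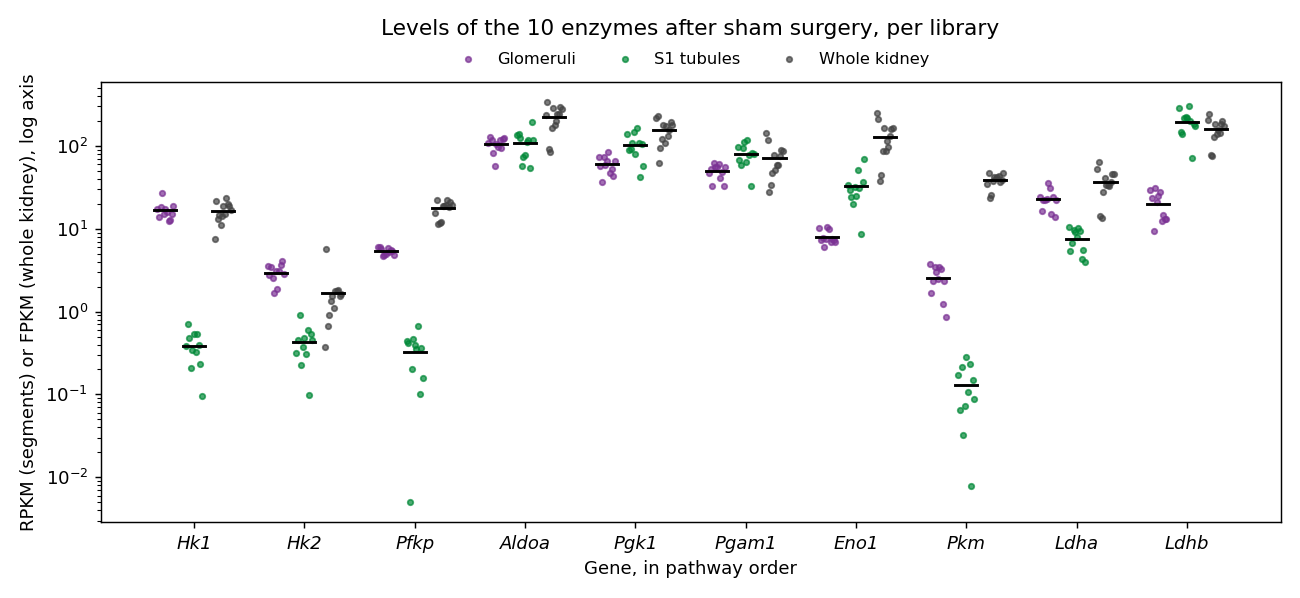
Level of each enzyme gene in every sham library, as deposited RPKM for glomeruli (n = 11) and S1 tubules (n = 11) and deposited FPKM for whole kidney (n = 12), on a log axis. Points are libraries and black lines are means, and the 1 S1 library with Pfkp at 0 is drawn at the bottom of the axis. Hk1, Pfkp and Pkm in S1 tubules sit below all libraries of the other tissues, and Ldhb sits lowest in glomeruli.

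Some neighbours in the order of levels kept their places in every library and others did not. In whole kidney Aldoa exceeded Ldhb in 12 of 12 libraries and Hk2 was below Hk1 in 12 of 12, whereas Ldhb exceeded Pgk1 in 8, Pkm exceeded Ldha in 9 and Pfkp exceeded Hk1 in 7. In glomeruli Aldoa was above Pgk1 in 10 of 11 libraries, and Pgk1, Pgam1 and Ldha followed in that order in 11 of 11. Ldha, Ldhb and Hk1 traded places there, with Ldha above Ldhb in 8 and Ldhb above Hk1 in 8, and so did the lowest pair, with Hk2 above Pkm in 6. In S1 the order Pgam1, Eno1, Ldha and Hk2 held in 11 of 11 libraries. Neighbours that did not differ beyond their spread in S1 were Aldoa and Pgk1 (Aldoa higher in 6 of 11), Hk2 and Hk1 (Hk2 higher in 6) and Hk1 and Pfkp (Hk1 higher in 5).

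Sequence copies limit some of these levels. RefSeq lists 30 pseudogenes each for Eno1 and Ldha, 19 for Pkm, 13 for Pgam1, 9 for Aldoa, 8 for Pgk1 and 1 for Ldhb, and none for Hk1, Hk2 and Pfkp. Reads that also match such a copy can be lost or assigned to it, so the levels of the copied genes are uncertain. Outside the set, Gapdh, with 79 listed pseudogenes, was 1.48 RPKM in glomeruli and 0.922 RPKM in S1, beside 201.6 FPKM in whole kidney. Tpi1, triosephosphate isomerase, was near 0 in the segments, at 0.0173 RPKM in glomeruli and 0.0171 RPKM in S1, beside 0.710 FPKM in whole kidney. How far copies or the library methods account for those differences was not tested.

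Between the dissected segments, which share a library method, the set divided by step. On counts scaled by the trimmed mean of M-values (TMM), Hk1, Hk2, Pfkp and Pkm were higher in glomeruli and Aldoa, Pgk1, Pgam1, Eno1 and Ldhb were lower. Thus 9 of the 10 passed edgeR's quasi-likelihood test at an adjusted p of 0.05, where 50.3% of the 22313 genes tested passed (28.1% higher, 22.2% lower). With about every other gene called, the number of members called is not particular to the set, and what the data add is the size and direction for each enzyme. The median log2 fold change was -0.93 over the 10 members, against 0.62 over all genes tested.

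Among the genes higher in glomeruli, Hk1 differed most, with a log2 fold change of 3.68 ± 0.262 (SE, adjusted p = 2.71e-13). Pkm followed at 2.58 ± 0.462 (adjusted p = 2.11e-05) and Pfkp at 2.37 ± 0.347 (adjusted p = 8.5e-07). Hk2 differed least, at 1.08 ± 0.238 (adjusted p = 3.5e-04). These 4 include the members at the irreversible steps of the pathway, and no member at an irreversible step was lower in glomeruli. That holds for the isozymes in the set and not for the steps as such. Outside the set, Pklr was lower in glomeruli, and Pfkl and Pfkm did not pass, as given below. Among the genes lower in glomeruli, Ldhb had a log2 fold change of -5.04 ± 0.229 (adjusted p = 9.17e-18) and Eno1 of -3.72 ± 0.253 (adjusted p = 8.61e-14). Pgk1 was at -2.48 ± 0.194 (adjusted p = 2.14e-12), Pgam1 at -2.39 ± 0.191 (adjusted p = 3.78e-12) and Aldoa at -1.73 ± 0.168 (adjusted p = 3.02e-10). Ldha, at -0.13 ± 0.189, did not pass (adjusted p = 0.548). In bulk RNA, more cells of a type and more RNA per cell cannot be told apart.

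The scaling moved all of these values together. With library totals alone the median over all genes was 2.30 in place of 0.62, and 92.8% of the calls were higher in glomeruli in place of 55.8%, with 66.7% under size factors by relative log expression. The 10 members kept their order. Hk1, Pkm, Pfkp and Hk2 stayed higher under library totals, at 5.39, 4.25, 4.03 and 2.77, and Ldhb, Eno1, Pgk1 and Pgam1 stayed lower, at -3.32, -2.01, -0.79 and -0.69. Aldoa lost its call under library totals, at -0.06 (adjusted p = 0.757), and Ldha turned to a called 1.59 (adjusted p = 2.41e-08). Whether Aldoa and Ldha differ between the segments thus depends on the scaling, while the direction of the other 8 did not change over the 3 scalings. With the pair numbered 2 at 24 h kept, 9 members were again called, with Hk1 at 3.10, Ldhb at -3.78 and Ldha at 0.00.

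**Figure D2:**
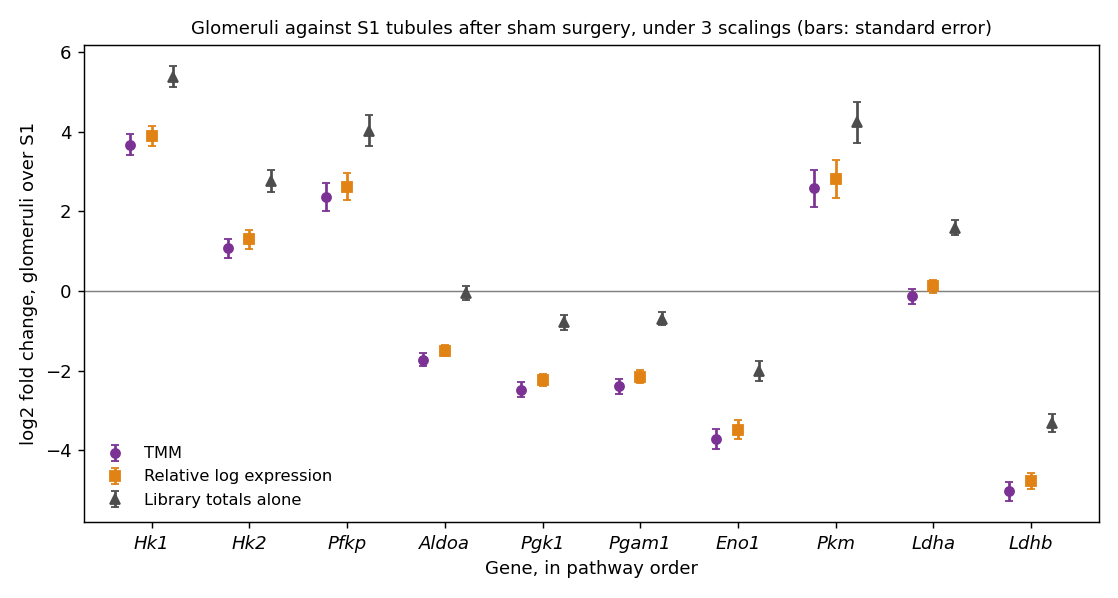
log2 fold change of each enzyme gene, glomeruli over S1 tubules, in the 22 sham libraries of the segments, under 3 scalings of the same counts (points) with standard errors (bars). Hk1, Hk2, Pfkp and Pkm lie above 0 and Pgk1, Pgam1, Eno1 and Ldhb below 0 under each scaling, whereas Aldoa and Ldha come to 0 or cross it under library totals.

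On TMM scaling, several enzymes outside the set were lower in glomeruli. Of 16 other glycolysis enzymes and isozymes, 13 were tested, 3 were higher in glomeruli, 6 lower and 4 did not pass, with a median of -0.46. Ldhd, the mitochondrial dehydrogenase of D-lactate, had a log2 fold change of -3.93 ± 0.178 (adjusted p = 9.23e-18). Pklr, the liver-type pyruvate kinase, was at -4.00 ± 0.369 (adjusted p = 9.27e-11) and Gpi, glucose-6-phosphate isomerase, at -2.17 ± 0.183 (adjusted p = 1.33e-11). Those 3 stayed lower under library totals, Gpi at -0.49. The liver and muscle phosphofructokinases Pfkl and Pfkm did not pass, at -0.46 (adjusted p = 0.0557) and -0.35 (adjusted p = 0.126), and turned to called values of 1.20 and 1.31 under library totals. Gapdh was called lower, at -1.01 (adjusted p = 0.0401), and was at 0.67 without a call under library totals. Of the 13 tested, library totals gave 8 higher and 4 lower, with a median of 1.20. Size factors by relative log expression gave 4 higher and 4 lower, with a median of -0.25. The balance of this list thus depends on the scaling.

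Regulators and carriers of glucose, lactate and pyruvate were mostly lower in glomeruli on TMM scaling, 11 of 17 tested from a list of 20, with 1 higher, a median of -1.55. Pfkfb3, whose product makes an activator of phosphofructokinase, was the one called higher, at a log2 fold change of 4.58 ± 0.239 (adjusted p = 2.06e-16). Pdk2, a kinase that switches off pyruvate dehydrogenase, was at -4.27 ± 0.202 (adjusted p = 2.22e-17). Slc16a1, a monocarboxylate carrier, was at -5.49 ± 0.345 (adjusted p = 1.46e-14) and Mpc1, a subunit of the mitochondrial pyruvate carrier, at -3.45 ± 0.218 (adjusted p = 1.77e-14). Slc2a1, the glucose carrier GLUT1, did not pass, at 0.26 (adjusted p = 0.40), nor did the lactate exporter Slc16a3, at 0.72 (adjusted p = 0.138). Under library totals the list had 6 higher and 6 lower, and Slc2a1 and Slc16a3 were called higher, at 1.91 and 2.37. Hif1a and 15 further genes of the hypoxia-inducible factors and their targets outside glycolysis divided into 6 higher and 6 lower, with a median of 0.05. Adm, which encodes adrenomedullin, was at 3.84 ± 0.25 (adjusted p = 3.1e-14), whereas Ndrg1 was at -5.18 ± 0.237 (adjusted p = 1.12e-17), Ankrd37 at -5.23 ± 0.254 (adjusted p = 3.82e-17) and Bnip3, a mitophagy receptor, at -3.13 ± 0.201 (adjusted p = 2.46e-14). Hif1a itself was called lower, at -0.66 (adjusted p = 0.00337), and called higher, at 1.11, under library totals. With library totals, 13 genes of this hypoxia list were higher and 3 lower, with a median of 1.78.

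In whole kidney, no member passed the test for an effect of nephrectomy. Counts of nephrectomy libraries above the average sham library are given below as description, without the share over all genes. Over the 3 times, 0 of the 10 were called at an adjusted p of 0.05, against 2.86% of the 15678 genes tested (1.69% higher, 1.17% lower). At an unadjusted p of 0.05, 4 of the 10 passed, namely Ldha, Pfkp, Pkm and Aldoa, against 17.5% of all genes. The log2 fold change was above 0 for 8 of the 10, against 48.6% of all genes, and its median was 0.23 over the members and -0.01 over all genes. Under library totals Pgk1 turned to -0.04, and the sign of the other 9 stayed. DESeq2 called 0 members and limma on log2 FPKM called 0, while voom with sample weights called 2, Pgam1 (0.26, adjusted p = 0.035) and Ldha (0.33, adjusted p = 0.0172). Of all 15678 genes these settings called 865, 0 and 1884 in that order.

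Ldha, the lactate-forming end of the pathway, had the smallest p of the set. At 24 h it was 51.0, 57.7, 94.9 and 56.8 CPM after nephrectomy and 72.3, 65.5, 50.7 and 36.2 after sham. At 48 h it was 62.2, 65.8, 89.2 and 93.3 after nephrectomy and 43.9, 52.9, 60.9 and 53.9 after sham. At 72 h it was 68.9, 66.2, 69.2 and 70.3 after nephrectomy and 49.5, 48.1, 59.8 and 62.7 after sham. All nephrectomy libraries lay above all sham libraries at 48 and 72 h, and the groups overlapped at 24 h. The log2 fold change of Ldha over the 3 times was 0.36 ± 0.115 (SE, unadjusted p = 0.00474, adjusted p = 0.0942), and 11 of 12 nephrectomy libraries exceeded the average sham library of the same hour. At 48 h it was 0.55 ± 0.199 (adjusted p = 0.327). Without the 24 h libraries numbered 3 and 4 the value over the 3 times was 0.17 (adjusted p = 0.277). Over 48 and 72 h alone, where 717 of 15455 genes were called, it was 0.44 (adjusted p = 0.0279). Leaving out sham replicate 1 at 24 h also brought it past the threshold, at 0.41 (adjusted p = 0.0453).

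Pfkp and Pkm, at the committed step and at the last step, had their largest fold change over sham at 24 h. Pkm was 86.6, 91.1, 85.3 and 91.3 CPM after nephrectomy at 24 h, and 49.9, 51.6, 89.4 and 74.5 after sham. Pfkp was 52.8, 51.9, 82.7 and 54.7 after nephrectomy and 29.5, 31.6, 56.2 and 44.0 after sham. Both overlapped with sham through sham replicate 3. At 24 h the log2 fold change was 0.42 ± 0.154 for Pkm (unadjusted p = 0.0125, adjusted p = 0.254) and 0.58 ± 0.20 for Pfkp (unadjusted p = 0.00805, adjusted p = 0.215). Taken over all times it was 0.23 ± 0.0885 for Pkm (adjusted p = 0.17) and 0.32 ± 0.115 for Pfkp (adjusted p = 0.146). After nephrectomy 12 of 12 libraries had more Pkm than the average sham library of the same hour, and 11 had more Pfkp.

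The calls of both depended on the libraries that stand apart. Without the 24 h libraries numbered 3 and 4, which leaves 2 libraries per operation at that time, Pkm was called higher at 24 h, at 0.80 (adjusted p = 0.00396), Pfkp higher, at 0.77 (adjusted p = 0.0203), and Eno1 lower, at -1.04 (adjusted p = 0.00642). That fit called 2645 of 16122 genes at 24 h, in place of 37 of 15678. Taken over all times, where that fit called 785 of 16122 genes, Pkm was called, at 0.36 (adjusted p = 0.0142). Pfkp was called as well, at 0.38 (adjusted p = 0.0351). Leaving out sham replicate 3 at 24 h alone also called both over the 3 times, Pkm at 0.29 (adjusted p = 0.0426) and Pfkp at 0.38 (adjusted p = 0.0474).

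Aldoa and Pgam1 separated the operations most cleanly at 48 h. Aldoa was 328, 353, 393 and 352 CPM after nephrectomy at 48 h and 230.3, 324, 281 and 285 after sham. Pgam1 was 119, 123, 147 and 144 after nephrectomy and 81.8, 109, 99.98 and 105 after sham. With Ldha, 3 of the 10 members lay wholly above sham at 48 h and 0 lay wholly below, where 3.43% of all genes tested lay above and 3.81% below. At 72 h 1 member, Ldha, lay above (5.33% of all genes), and at 24 h none lay above (1.69%) or below (1.62%). The log2 fold change over the 3 times was 0.26 ± 0.101 for Aldoa (unadjusted p = 0.0184, adjusted p = 0.183) and 0.23 ± 0.111 for Pgam1 (unadjusted p = 0.0505, adjusted p = 0.287). Pgam1 passed without sham replicate 1 at 24 h, at 0.32 (adjusted p = 0.0392), where that library had 209.7 CPM beside 100.2 to 128 in the other 3.

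The remaining members lay close to sham. Pgk1 was 141 to 212 CPM after nephrectomy and 136 to 210.5 after sham, with a log2 fold change of 0.02 ± 0.0837 over the 3 times (adjusted p = 0.934). Ldhb was 183 to 249.8 after nephrectomy and 168 to 232.5 after sham, at 0.06 ± 0.0782 (adjusted p = 0.732). The 95% intervals of these 2 fold changes ran from -0.14 to 0.18 and from -0.09 to 0.21. Eno1 was 135 to 253 after nephrectomy and 133 to 367 after sham, at -0.03 ± 0.141 (adjusted p = 0.936), and its highest sham value came from replicate 1 at 24 h. Hk1 was 37.2 to 104 after nephrectomy and 17.2 to 76.5 after sham, at 0.24 ± 0.184 (adjusted p = 0.516). Hk2 was 5.91 to 12.4 after nephrectomy and 1.71 to 19.7 after sham, at -0.20 ± 0.211 (adjusted p = 0.664). The lowest and highest Hk2 values after sham were both at 24 h.

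**Figure D3:**
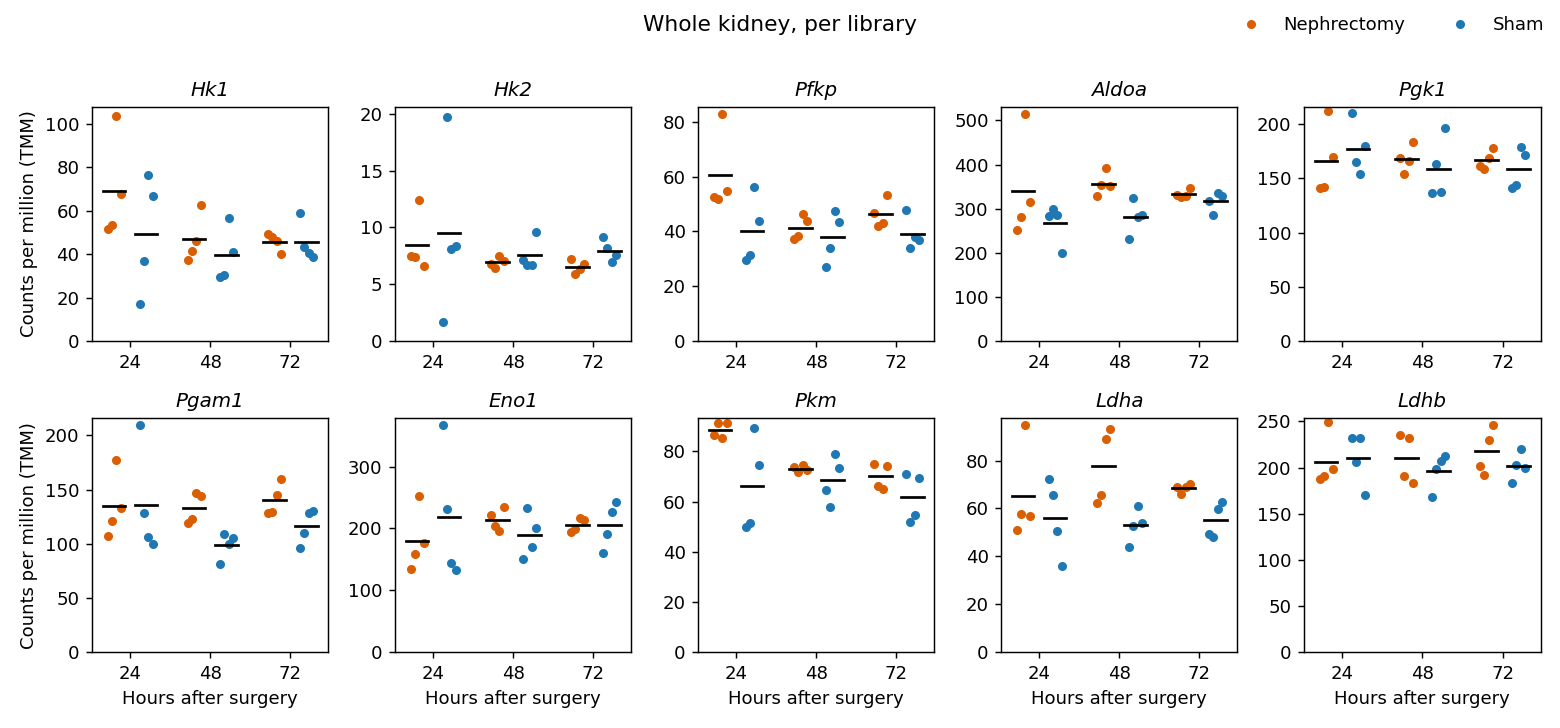
TMM-scaled CPM of each enzyme gene in every whole kidney library, by hours after surgery, with nephrectomy left of sham (n = 4 each per time). Points are libraries and black lines are means, and all vertical axes start at 0. Aldoa, Pgam1 and Ldha separate fully at 48 h, whereas the 24 h groups spread widely, with Pkm after nephrectomy at 85.3 to 91.3.

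The effect did not differ detectably between times. In the test of that difference 0 of 10 members passed, against 0.0191% of all genes, and the adjusted p was at least 0.998 for each member. At single times 0 members were called, with 0.236% of all genes called at 24 h (0.0893% higher, 0.147% lower), 0% at 48 h and 0.00638% at 72 h. Other settings called more genes, though no member, at the later times: DESeq2 called 166 at 48 h, voom called 596 at 72 h, and edgeR called 281 at 72 h from the libraries of that time alone. At an unadjusted p of 0.05, 2 members passed at 24 h, 2 at 48 h and 0 at 72 h, against 12.9%, 10.3% and 5.2% of all genes. Without the 24 h libraries numbered 3 and 4 the difference between times was called for 4 members, Pgam1 (adjusted p = 0.0332), Eno1 (0.0188), Pkm (0.0498) and Ldha (0.0407), in a fit that called 1830 genes.

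The cell type markers of whole kidney were read beside these values, with nephrectomy again set against sham. All 7 early proximal markers had a log2 fold change below 0 over the 3 times, with a median of -0.39. None was called, and 6 of the 7 passed at an unadjusted p of 0.05, against 17.5% of all genes. Their summed level was 4114 to 5747 CPM after nephrectomy (median 4693) and 4339 to 7703 after sham (5933). The medians were 4427 after nephrectomy and 5929 after sham at 24 h, 5017 after nephrectomy and 5597 after sham at 48 h, and 4994 after nephrectomy and 6780 after sham at 72 h. All 6 tested markers of the loop of Henle and distal convoluted tubule were above 0 (median 0.15, none called), with sums of 3354 to 4599 after nephrectomy (median 4112) and 2829 to 4683 after sham (3457), and Pvalb was at 0 in every whole kidney library. Podocyte marker sums were 99.7 to 422 after nephrectomy and 154 to 451 after sham, and immune marker sums were 178 to 367 after nephrectomy and 278 to 434 after sham. Of 6 mesangial and smooth muscle and 7 collecting duct markers, 1 each was called higher, Tagln at 0.67 (adjusted p = 0.00792) and Avpr2 at 0.47 (adjusted p = 0.0141). The part of these shifts in the values of the 10 enzymes was not tested.

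Other genes of the pathway did not pass in whole kidney either. Of 13 other glycolysis enzymes tested, of 17 regulators and carriers and of 15 genes of the hypoxia-inducible factors and their targets, 0 were called over the 3 times, with medians of 0.07, 0.05 and -0.01. Pklr had a log2 fold change of -0.21 (adjusted p = 0.683), Gapdh of 0.25 (0.568), Tpi1 of 0.32 (0.493) and Gpi of 0.07. Pfkl and Pfkm were at 0.19 (0.32) and 0.13 (0.352). Slc16a3 was at 0.59 ± 0.203 (adjusted p = 0.123), Slc2a1 at 0.27 (0.168) and Hif1a at -0.16 (0.259).

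In glomeruli no member was called after nephrectomy, at any time or over the 3 times, and neither was any of the 22405 genes tested (0%). At an unadjusted p of 0.05, 0 of the 10 members passed over the 3 times, against 2.11% of all genes. DESeq2 called 3 of all genes and 0 members. Eno1 had the largest value, 0.35 ± 0.189 on the log2 scale (unadjusted p = 0.0794, adjusted p = 1). It was 14.2, 14.8, 25.0 and 14.4 CPM after nephrectomy at 24 h and 15.2, 11.7 and 12.7 after sham, with overlap. Pgam1 was at 0.30 ± 0.182, Pgk1 at 0.27 ± 0.222, Ldhb at 0.26 ± 0.225, Hk2 at 0.15 ± 0.155 and Aldoa at 0.15 ± 0.149. Pkm was at 0.10 ± 0.363, Ldha at 0.08 ± 0.201, Pfkp at -0.10 ± 0.260 and Hk1 at -0.16 ± 0.252. No member separated the operations at any time, where 0.317 to 1.43% of all genes lay wholly above sham. The effect differed between times for 0 members, against 0.00446% of all genes.

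In S1 tubules 0 of 10 members and 0% of the 18372 genes tested were called over the 3 times, and DESeq2 called 11 genes, none of them a member. At single times no member was called either, while DESeq2 called 744 genes at 72 h, 719 of them higher, and voom called 186 at 48 h. At an unadjusted p of 0.05, 1 member passed over the 3 times, against 2.54% of all genes. Hk1 was at 0.90 ± 0.420 on the log2 scale (unadjusted p = 0.0417, adjusted p = 1) and Hk2 at -0.64 ± 0.347 (unadjusted p = 0.0778, adjusted p = 1). Without the 72 h libraries low in Slc5a2, a setting chosen after seeing the data, Hk1 was at 0.60 and Hk2 at -0.72, neither called. At 48 h Hk1 was 1.49, 3.66, 1.21 and 1.83 CPM after nephrectomy and 0.614, 0.935, 1.49 and 0.837 after sham. Hk2 was 1.25, 1.12, 0.837 and 0.691 after nephrectomy and 1.35, 2.06, 2.70 and 1.59 after sham. At that time Hk2 lay wholly below sham (2.81% of all genes), Ldha lay wholly above (2.92%), and Hk1 overlapped. Ldha was 19.2, 24.1, 17.2 and 27.2 after nephrectomy and 16.9, 14.8, 12.9 and 15.7 after sham. Over the 3 times Ldha was at 0.16 ± 0.272. Pfkp was at 0.47 ± 0.497 and Pkm at -0.90 ± 0.765, with Pkm on 0 to 40 counts per library, and the other 5 members lay between -0.08 and 0.11. The effect differed between times for 0 members (0.0109% of all genes).

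The effect of nephrectomy was set against itself between the segments, and 0 of 10 members differed (0% of 24488 genes). Hk1 was at -0.95 ± 0.440 for glomeruli minus S1 (unadjusted p = 0.0352) and Hk2 at 0.83 ± 0.342 (unadjusted p = 0.0192), both with an adjusted p of 1, where 2.54% of all genes passed at an unadjusted p of 0.05. Libraries varied more in the segments: edgeR estimated a biological coefficient of variation of 0.625 for glomeruli and 0.713 for S1, against 0.248 in whole kidney.

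**Figure D4:**
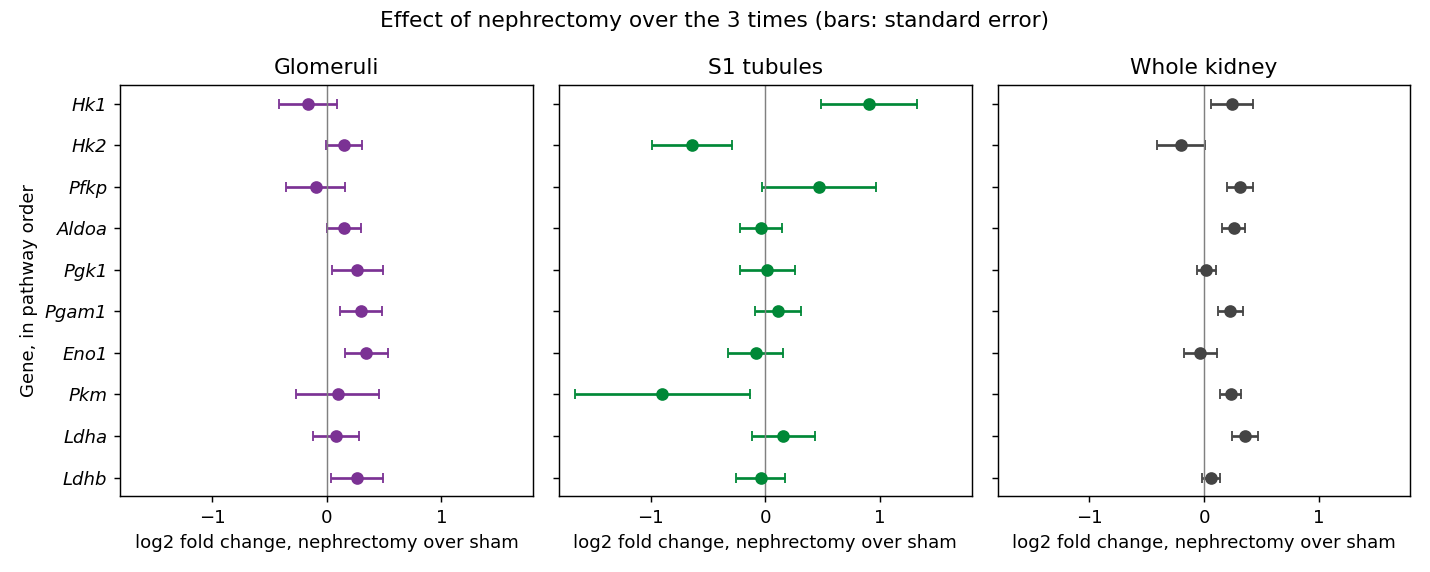
log2 fold change of each enzyme gene, nephrectomy over sham, over the 3 times in glomeruli, S1 tubules and whole kidney, from edgeR (points) with standard errors (bars). In whole kidney 8 of the 10 points lie above 0, and none of the 30 points passed at an adjusted p of 0.05.

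Levels in the segments at each time are given over both operations, with no test. Ldhb in S1 averaged 212 ± 87 CPM at 24 h, 367 ± 61 at 48 h and 204 ± 82 at 72 h over both operations (SD, n = 7, 8 and 8). Pgk1 in S1 averaged 96.3, 165.9 and 91.1 at those times and in glomeruli 61.0, 97.2 and 61.2. Ldha was also highest at 48 h, at 11.2, 18.5 and 9.68 in S1 and 29.5, 49.3 and 30.7 in glomeruli. Not all members did so. After sham, Aldoa averaged 169, 113 and 172 CPM in S1 and 149, 128 and 149 in glomeruli. Hk2 after sham averaged 2.87, 1.92 and 2.32 in S1 and 15.9, 13.4 and 16.9 in glomeruli. After nephrectomy, Aldoa in S1 averaged 161, 140 and 134.5. Time and any processing by time cannot be told apart here.

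Pairs of isozymes that share a reaction were compared within each library, where the scaling of the library cancels. Each ratio is the log2 of the first value over the second, in deposited RPKM or FPKM with 0.1 added to each. After sham, Hk2 over Hk1 was 0.191 ± 0.0647 in glomeruli, 1.23 ± 0.688 in S1 and 0.104 ± 0.056 in whole kidney as a plain ratio (SD, n = 11, 11 and 12). Pkm over Pklr was 9.04 ± 8.80, 0.161 ± 0.118 and 4.64 ± 2.41 in that order, and Ldha over Ldhb was 1.27 ± 0.502, 0.0404 ± 0.0106 and 0.226 ± 0.0294. By the deposited values, glomeruli thus carried more Pkm than Pklr, and both lactate dehydrogenase subunits at similar levels on average. S1 carried more Pklr than Pkm and mainly Ldhb. Few reads limit the first pair: Pklr had 1 to 92 counts in glomeruli (median 13) and Pkm 1 to 30 in S1 (median 5). Listed pseudogenes were 19 for Pkm and 0 for Pklr, and 30 for Ldha and 1 for Ldhb. Their part in the ratios was not tested. Over the sham glomerular libraries, Ldha over Ldhb ran from 0.709 to 2.39. The lowest ratio was in replicate 3 at 24 h, with Slc12a1 at 491 CPM. The highest was in replicate 4 at 24 h, with Slc12a1 at 1.62 CPM. The part of loop transcripts in this ratio was not tested.

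All 3 ratios differed between the segments after sham. The log2 difference, glomeruli minus S1, was 5.41 for Pkm over Pklr, 4.91 for Ldha over Ldhb and -2.56 for Hk2 over Hk1. For each of the 3 the exact two-sided permutation p was 2.04e-05, also after adjustment over the 4 tests, which is 2 of 98000 relabellings within times and the smallest the design allows. None of the 22 libraries of the segments crossed over between the segments for any of the 3 ratios.

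After nephrectomy, 2 of the 9 ratios set against sham over the 3 tissues differed at a p adjusted over 12 tests of 0.05. Ldha over Ldhb in whole kidney was 0.229, 0.253, 0.318 and 0.241 after nephrectomy at 24 h and 0.260, 0.266, 0.184 and 0.179 after sham. At 48 h it was 0.221, 0.289, 0.322 and 0.427 after nephrectomy and 0.219, 0.223, 0.247 and 0.213 after sham, and at 72 h 0.286, 0.290, 0.252 and 0.239 after nephrectomy and 0.226, 0.199, 0.227 and 0.264 after sham. The groups overlapped at each time, and the log2 difference was 0.30, or 1.23-fold (exact permutation p = 0.00441, adjusted p = 0.0176). Without the 24 h libraries numbered 3 and 4 it was 0.18 and did not pass (adjusted p = 0.261). Hk2 over Hk1 in whole kidney was at -0.37 (exact permutation p = 0.0458, adjusted p = 0.137) and Pkm over Pklr at 0.40 (adjusted p = 0.325).

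In S1 tubules, Hk2 over Hk1 was 1.08, 0.459, 0.483 and 1.08 after nephrectomy at 24 h and 0.844, 0.693 and 1.72 after sham. At 48 h it was 0.508, 0.208, 0.457 and 0.282 after nephrectomy and 1.06, 1.06, 0.906 and 0.947 after sham, and at 72 h 1.02, 0.341, 0.473 and 0.330 after nephrectomy and 1.12, 0.403, 1.90 and 2.86 after sham. The operations separated fully at 48 h and overlapped at 24 and 72 h. The log2 difference was -1.13, or 0.455-fold (exact permutation p = 0.00252, adjusted p = 0.0151). With 1 in place of 0.1 added it was -0.45 (adjusted p = 0.011), and with the pair numbered 2 kept it passed as well (adjusted p = 0.041). Of the 72 h libraries low in Slc5a2, sham replicate 4 held the highest ratio, and without both of them the difference was -0.95 (adjusted p = 0.047). The ratio rests on 13 to 268 Hk1 counts after nephrectomy and 5 to 108 after sham. Hk1 is higher in glomeruli, and the summed podocyte markers in S1 were 12.1 to 71.5 CPM after nephrectomy (median 25.2) and 15.96 to 40.13 after sham (28.8). Collecting duct sums in S1 were 26.1 to 194 after nephrectomy (45.4) and 28.4 to 69.3 after sham (51.3). Endothelial sums were 31.1 to 122 after nephrectomy (81.1) and 29.5 to 92.0 after sham (77.8). Mesangial and smooth muscle sums were 6.20 to 65.6 after nephrectomy (10.7) and 6.13 to 49.2 after sham (12.3). Their part in the ratio was not tested. The other 5 ratios, including all 3 in glomeruli, had an adjusted p of at least 0.342.

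**Figure D5:**
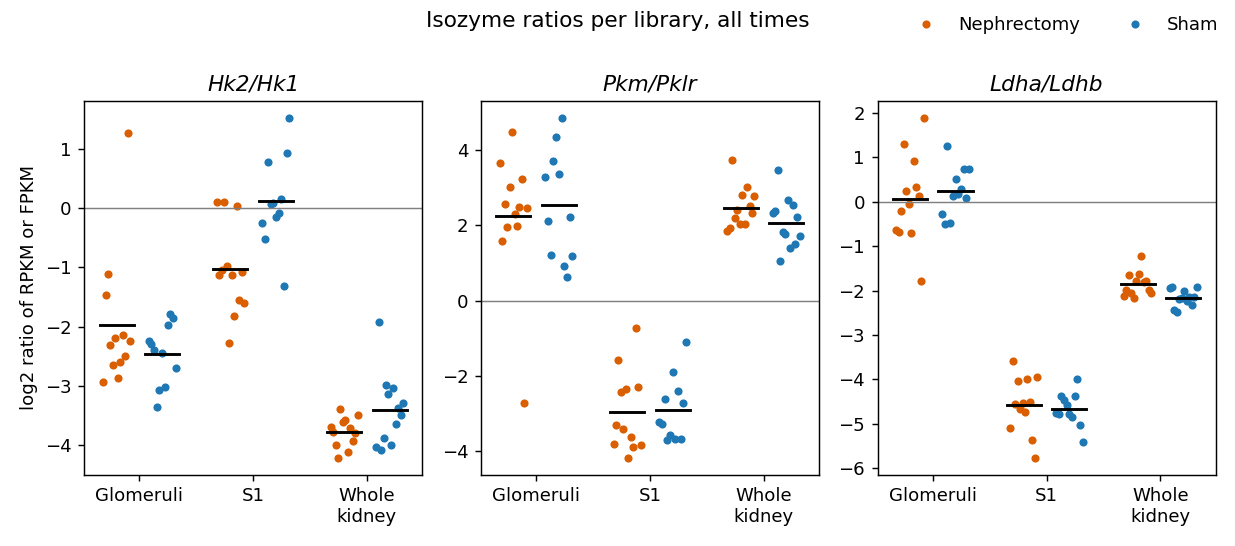
log2 ratio of deposited RPKM or FPKM for 3 isozyme pairs in every library, all times together, with nephrectomy left of sham in each tissue (n = 12 and 11 in the segments, 12 and 12 in whole kidney). Points are libraries and black lines are means. The differences by operation that passed are those of Hk2 over Hk1 in S1, at -1.13, and of Ldha over Ldhb in whole kidney, at 0.30.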

How the data were processed

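RNA was sequenced from 72 rat libraries. Per the submitters' processing notes, reads were trimmed with Trimmomatic 0.32, aligned with STAR 2.4.0.1 and handled with SAMtools and HTSeq; for the genome build, annotation and strand setting nothing was given in the sources used here. Per the file headers, the authors deposited HTSeq counts per Ensembl gene, and RPKM for the segments and FPKM for whole kidney, which the authors scaled to gene length and library size. The 5 HTSeq summary entries name no gene and entered neither library sizes nor tests.

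The counts were tested with edgeR 4.0.16 in R 4.3.3 (TMM factors, filterByExpr with a minimum count of 10, quasi-likelihood F test, 1 fit per tissue with a term for each operation and time), adjusted over all genes by Benjamini-Hochberg at 0.05. CPM are edgeR values with TMM. The segments were compared in their 22 sham libraries as group means averaged over the times. Isozyme ratios of deposited RPKM or FPKM were compared by exact two-sided permutation within times. Alternatives were other scalings, no filter, DESeq2 1.42.0, limma 3.58.1 (voom, and log2 RPKM or FPKM with 1 added), a replicate block, and leaving out libraries, of which the S1 72 h libraries low in Slc5a2 were chosen after seeing the data. The count tests were checked on simulated counts with few changed genes, as many raised as lowered. That check cannot decide between the scalings of the segments, where about every other gene was called.

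The members and lists were chosen with earlier results of these data known. All members are named in each comparison, with, from the other lists, up to 4 genes of smallest adjusted p among those that passed and a fixed group (Pklr, Gapdh, Tpi1, Gpi, Pfkl, Pfkm, Slc2a1, Slc16a3 and Hif1a). Hkdc1, Tigar, Pdha1, Egln1 and the marker Pecam1 were not analysed here. 1 further gene of the fixed group, and the isozyme pair with it, entered the fits, list counts and p adjustments and is not reported here. Precision follows from the number of libraries and from counting error, which is largest for the members with few counts in S1.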

Additional observations from a re-analysis of the deposited data

Results flagged for a closer look

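Among 160 groups of 4 libraries, 10 held a library of an enzyme gene that stood far from the other 3, and chance alone marks about 5% of such groups. The gap is given as a share of the whole range of the group, on log2 CPM. In glomeruli after nephrectomy at 72 h, replicate 3, the library with 2643258 gene counts, had Hk1 at 3.14 CPM, against 34.6 to 48.0 CPM in the others (gap 0.875), and Pkm at 0 CPM, against 5.08 to 5.45 CPM (0.974). In glomeruli after nephrectomy, replicate 3 at 24 h had Eno1 at 25.0 CPM, against 14.2 to 14.8 CPM (0.933), and replicate 3 at 48 h had Pgk1 at 134 CPM, against 98.7 to 102 CPM (0.907). In glomeruli after sham at 48 h, replicate 1 had Hk1 at 73.3 CPM, against 45.5 to 49.3 CPM (0.83).

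In S1 after nephrectomy at 72 h, replicate 2 had Aldoa at 44.7 CPM, against 150 to 173 CPM (0.894). In that library only 8.05% of the reads inside or outside genes were assigned to any gene. In S1 after sham, replicate 1 at 72 h had Pgk1 at 113 CPM, against 82.3 to 83.9 CPM (0.941), and replicate 3 at 48 h had Pgam1 at 116 CPM, against 182 to 197 CPM (0.855). In whole kidney at 24 h, nephrectomy replicate 3 had Pfkp at 82.7 CPM, against 51.9 to 54.7 CPM (0.889), and sham replicate 4 had Aldoa at 200.1 CPM, against 283 to 299.7 CPM (0.857). Both belong to the 24 h libraries with low Slc5a2.

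In 3 cases every nephrectomy library lay on one side of the sham mean in one tissue and on the other side in another tissue. The search took in 10 members at 3 times in each pair of the 3 tissues. The share over all genes was not computed, so the number of cases is description only. Eno1 at 72 h had a log2 fold change of 0.52 in glomeruli and -0.63 in S1, 1.15 apart. Pkm at 48 h had 0.09 in whole kidney and -0.37 in glomeruli, 0.463 apart. Pkm at 72 h had 0.18 in whole kidney and -2.46 in S1, 2.64 apart, on 0 to 4 counts after nephrectomy and 1 to 30 after sham in S1. These differences were not tested.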

How the results depend on the processing

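Of 1277 values recomputed under other settings, 1262 kept their side of the threshold and their direction when called, 2 lost the call, 11 gained it and 2 reversed. Of 3472 values with 1 library left out, 3466 did and 6 gained a call. For whole kidney the number of members called moved from 0 as follows. At 24 h it was 1 with the replicate block, 3 without the 24 h libraries numbered 3 and 4, and 0 to 2 with 1 library left out. Over the 3 times it was 1 with the block, 2 by voom, 2 without those libraries, 2 with 48 and 72 h only, and 0 to 2 with 1 library left out. The difference between times was called for 4 without those libraries. The block called Pfkp, at 0.61 at 24 h (adjusted p = 0.0475) and 0.34 over the 3 times (adjusted p = 0.0274), and changed no other call of a member. Replicate numbers were not taken to pair the libraries: deviations of same-numbered nephrectomy and sham libraries correlated above 0.1 in 6 of 12 pairs in whole kidney (all 4 at 72 h), 2 of 11 in glomeruli and 5 of 11 in S1, and those of glomeruli and S1 in 4 of 12 pairs after nephrectomy and 8 of 11 after sham. Between glomeruli and S1, Ldha reversed to 1.59 under library totals and 1.49 by limma on log2 RPKM. In whole kidney, Hk2 over Hk1 was -0.38 with 1 added, past the threshold, and -0.45 to -0.20 with 1 library left out, passing only without sham replicate 3 at 48 h, and Ldha over Ldhb was 0.18 without the 24 h libraries numbered 3 and 4. The causes were not tested. No member was called after nephrectomy in glomeruli or S1 under any setting run.

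Counts over all genes moved too. In whole kidney at 24 h they were 307 by DESeq2, 110 by voom, 124 with the block, 0 by library totals and 2645 without the libraries numbered 3 and 4, in place of 37. Over the 3 times they were 865 by DESeq2, 1884 by voom, 717 with 48 and 72 h only, 121 by library totals, 0 by limma on log2 FPKM and 785 without those libraries, in place of 448. At 48 h DESeq2 called 166 in place of 0, and at 72 h voom called 596 and the libraries of that time alone 281, in place of 1. In S1 DESeq2 called 744 at 72 h and voom 186 at 48 h, in place of 0. Library totals moved the median of all genes to -0.32 at 24 h and 0.27 at 48 h. Between glomeruli and S1 they were 20163 by library totals and 20553 by limma, in place of 11225. Few counts limit Pkm, Pfkp, Hk1 and Hk2 in S1.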
